A study of Mus musculus with 3 samples.

Results

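The ephrin, semaphorin, plexin and Slit guidance genes were described in 3 cultures of mouse pluripotent stem cells. Members were matched by symbol: Eph receptors, ephrins, semaphorins, plexins, neuropilins, Robo receptors, Slits and genes whose symbol begins with Unc5. The set was chosen with earlier results of these data known, and Epha1, Sema6a and Epha4 were named with it as markers. On the Mouse Gene 2.0 ST array, 66 of 22180 genes met that rule, namely 13 Eph receptors, 8 ephrins, 20 semaphorins, 11 plexins and neuropilins, 7 Slit and Robo genes, 4 netrin receptors of the Unc5 family and 3 that share only the letters. Those 3 were Unc50, Unc5cl and the antisense gene Plxna4os1, which are not guidance receptors and enter neither the 32 receptors nor the 31 ligands. RNA came from 1 array per culture. In the Activin+PD culture, EB3 cells, an established line of mouse embryonic stem cells (mESCs), were kept for 64 days in N2B27 medium with 20 ng/ml Activin A, a ligand that signals through SMAD2/3, and 2 µM of the MEK inhibitor PD0325901. In the 2i culture, EB3 mESCs were kept for 34 days in the same base medium with 2 µM PD0325901 and 2 µM of the GSK3 inhibitor CHIR99021. Mouse epiblast stem cells (mEpiSCs), derived by induction of the same EB3 line, were grown in that base medium with Activin A at 20 ng/ml, bFGF at 12 ng/ml and no inhibitor. All 3 cultures thus trace to 1 line, and no length of mEpiSC culture was found in the labels. The 2 cultures with Activin A, below called the Activin A cultures, were also the 2 without CHIR99021. These 2 factors cannot be told apart here.

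Guidance genes encode ligands and receptors that let a cell sense its neighbours, and they are best known for steering axons by attraction or repulsion. Eph receptors are receptor tyrosine kinases bound by ephrins on the adjoining cell, where ephrin-A ligands are held by a lipid anchor and ephrin-B ligands cross the membrane and can signal back. Semaphorins act through plexins, with neuropilins as co-receptors for most of the secreted class 3 members, while Slits bind Robo receptors and netrins bind Dcc, neogenin and Unc5 receptors. The same families set tissue boundaries and cell adhesion in early embryos and in vessels.

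Levels are log2 intensities, and levels of different genes are not compared, since probe sets differ in brightness. The 95th percentile of olfactory and vomeronasal receptor probe sets served as each array's background: log2 5.50 in the Activin+PD culture, 5.59 in 2i and 5.57 in mEpiSCs. A gene was compared between 2 arrays where the brighter was above its background, and it is called apart where the levels also differed at least 2-fold, which is 1 on the log2 scale. With 1 array per culture there was no test and no replicate error, and a difference between cultures cannot be told apart from one between arrays. The only spread available was the disagreement in log2 difference between 2 probe sets of the same gene. Its standard deviation was divided by the square root of 2, to stand for 1 probe set. This gave 0.36 for mEpiSC minus 2i, 0.33 for mEpiSC minus Activin+PD and 0.24 for Activin+PD minus 2i. These were bulk cultures, in which fewer cells of a type and less RNA per cell cannot be told apart. Naive markers such as Zfp42 were above background for 7 of 7 genes in both mESC cultures and 4 of 7 in mEpiSCs, with summed intensities of 7280 in Activin+PD, 6253 in 2i and 361 in mEpiSCs. Primed markers were above it for 6, 5 and 6 of 6 genes in that order, with sums of 1122, 1115 and 6863, although the tissue label of all 3 samples reads mESC. The near-equal sums of the mESC cultures hide genes that differed in direction. Otx2 was higher in Activin+PD than in 2i by at least 2.23, Fgf5 by 1.48, Sox3 by 0.32 and Pou3f1 by 0.24. Dnmt3b and Fst were each at -0.60. Mesendoderm markers were above background for 9 of 9 genes in mEpiSCs, with a summed intensity of 3283, and for 6 of 9 in Activin+PD and in 2i, with sums of 583 and 578. Neural markers were above background for 8, 7 and 7 of 9 genes (Activin+PD, 2i, mEpiSC), with sums of 1674, 1159 and 1233, but the genes differed in direction between mEpiSC and 2i, with Nes at 1.92, Ncam1 at -1.78 and Tubb3 at -1.18. Endothelial markers were above it for 3, 5 and 4 of 8, with sums of 446, 371 and 595. The mEpiSC sum was carried by Flt1, at 5.85, 5.90 and 8.18 on the 3 arrays, while Cdh5, Kdr and Tek differed from 2i by -0.049, -0.0071 and 0.062. Tek was highest in Activin+PD, at 7.15, and Emcn, Esam and Tie1 were below background throughout. Fibroblast markers were above background for 7 of 10 genes on each array, with sums of 632, 598 and 868, and Dcn, Lum and Postn were not above it on any array. Of the 7, Tagln at 1.41, Acta2 at 0.95 and Col1a1 at 0.54 differed most between mEpiSC and 2i. Thy1, Col3a1, Col1a2 and Pdgfra were at 0.34, 0.091, 0.064 and 0.015. The part of such cells in the guidance gene differences was not tested.

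Of the 66 genes, 47 were above background on all 3 arrays, 8 on 1 or 2 arrays and 11 on none. At least 1 array was thus above it for 55 of 66, against 14539 of 22180 over all genes. The 11 never above it were 8 receptors (Epha3, Epha5, Epha6, Robo2, Robo3, Unc5c, Nrp1 and Plxnb3), the ligands Sema3a and Sema3d, and Plxna4os1. Sema3a and Nrp1, a secreted repellent and its co-receptor, were therefore both below background in every culture. In all, 15 genes were apart in at least 1 comparison, 7 receptors and 8 ligands, and 34 were above background on all 3 arrays and within 2-fold throughout. Of those 34 genes, 21 spanned less than 0.5 on the log2 scale. The counts of 15, 34 and 21 were not made over all genes. Only the shares in each comparison, given below, have that background.

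**Figure D1:**
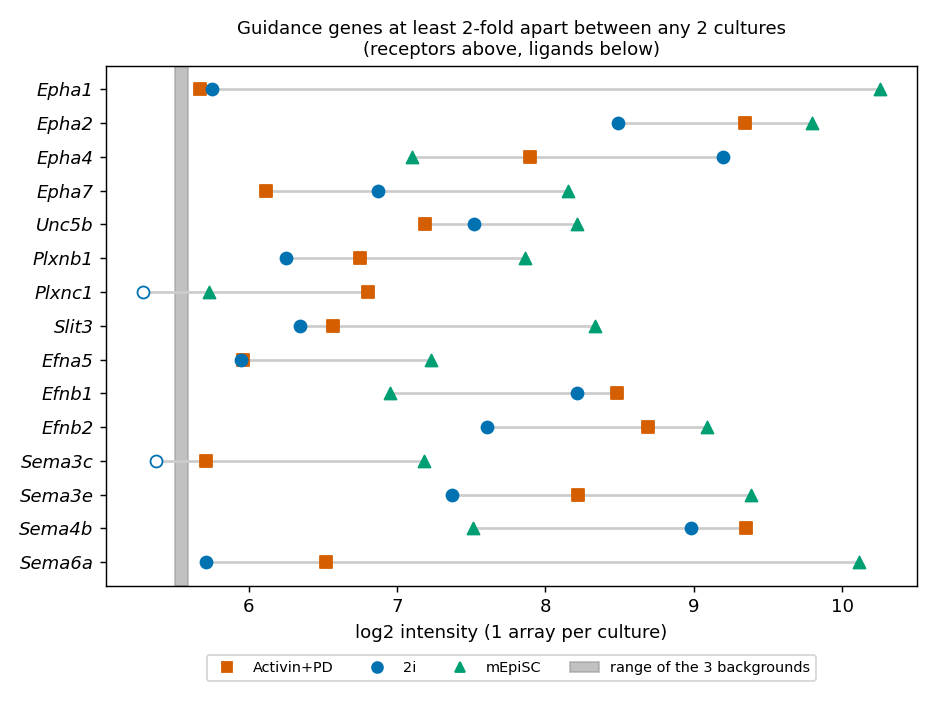
Log2 intensity of the 15 guidance genes at least 2-fold apart between any 2 cultures, 1 array per culture (squares Activin+PD, circles 2i, triangles mEpiSC; open symbols are not above background, and the grey band spans the 3 backgrounds). Levels are comparable within a row only. Epha1 and Sema6a have the widest rows, with mEpiSC highest, and Epha4 is highest in 2i and lowest in mEpiSC.

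The first comparison was of primed cells, the mEpiSCs, with naive cells in 2i. Guidance genes included some of the most different genes on the array: the receptor gene Epha1 was 22.7-fold and the ligand gene Sema6a 21.2-fold higher in mEpiSCs, rank 5 and rank 7 of 14223 genes compared. In all, 10 of 55 guidance genes were higher in mEpiSCs (Epha1, Epha2, Epha7, Plxnb1, Efna5, Efnb2, Sema3c, Sema3e, Sema6a and Slit3) and 3 were lower (Epha4, Efnb1 and Sema4b). These 13 were 23.6% of the members compared, against 9.48% of all genes. For the higher genes alone the background was 4.53% and for the lower 4.96%. Nearest the 2-fold limit were Efnb1 at -1.26 and Epha7 at 1.28 inside it, and Sema3f at 0.78 and Robo1 at -0.74 outside it.

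The second comparison set mEpiSCs against the Activin+PD mESCs, which share Activin A. These cultures differ in the MEK inhibitor, in bFGF and in the induction by which the mEpiSCs were derived. Epha1 was 23.9-fold and Sema6a 12.1-fold higher in mEpiSCs, rank 3 and rank 12 of 14383 genes. Of 54 members compared, 9 were higher (Epha1, Epha7, Plxnb1, Unc5b, Efna5, Sema3c, Sema3e, Sema6a and Slit3) and 3 lower (Plxnc1, Efnb1 and Sema4b). That is 22.2%, against 8.96% of all genes (3.59% higher and 5.37% lower). The mEpiSC array is shared by both comparisons, so the 8 genes higher in each of them and the 2 lower in each, Efnb1 and Sema4b, are not independent evidence. Unc5b at 1.03 and Plxnc1 at -1.07 lay just inside the limit, and Plxna3 at 0.84 and Epha4 at -0.80 just outside.

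The third comparison set the MEK-inhibited mESC cultures against each other, one with Activin A and the other with the GSK3 inhibitor. Efnb2 and Plxnc1 were higher in Activin+PD, Efnb2 by 2.12-fold and Plxnc1 by at least 2.32-fold, while Epha4 was 2.46-fold lower. These were 3 of 52 members, or 5.77%, against 2.2% of all genes (1.38% higher and 0.82% lower). Epha4 had rank 58 from the lowest of 14022 genes. Epha2 and Sema3e, each at 0.85, lay just outside the limit.

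**Figure D2:**
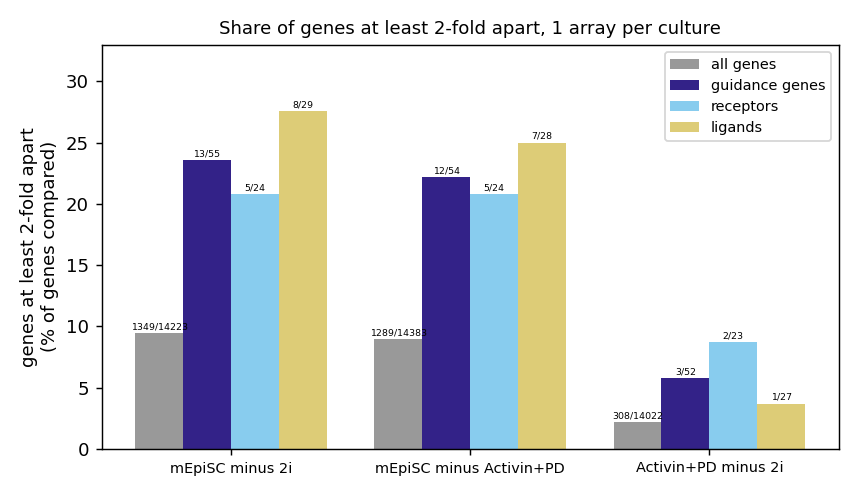
Percentage of compared genes at least 2-fold apart in either direction, for all genes, all guidance genes, receptors and ligands, with the number apart over the number compared above each bar. In the mEpiSC comparisons the guidance genes stand at 23.6% and 22.2% against 9.48% and 8.96% of all genes; in Activin+PD minus 2i they stand at 5.77%, which is 3 genes.

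Among the Eph receptors compared, those apart were all of the EphA group. Of 6 EphA genes compared between mEpiSC and 2i, 3 were higher and 1 lower, or 66.7% against 9.48% of all genes. Of 4 EphB genes none was apart, with differences from -0.64 to 0.36. Both groups are small, and Ephb2 was not among the members. Epha1, the founding member of the Eph family, had a level of 5.67 in Activin+PD, 5.75 in 2i and 10.25 in mEpiSCs. It was thus close to background in both mESC cultures and bright in mEpiSCs alone, with differences of 4.50 and 4.58. Epha7 was at 6.12 in Activin+PD, 6.87 in 2i and 8.15 in mEpiSCs, so that Activin+PD was the lowest culture and the difference to mEpiSCs (2.04) exceeded that of 2i to mEpiSCs (1.28).

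Epha2, a receptor of epithelial and embryonic cells, was at 9.35 in Activin+PD, 8.49 in 2i and 9.80 in mEpiSCs. Its 2 Activin A cultures lay 0.45 apart, and 2i was lower than either, by 0.85 and 1.31. Epha4, which can bind ephrins of both classes, ran the other way, at 7.90 in Activin+PD, 9.20 in 2i and 7.10 in mEpiSCs. For this gene 2i was the highest culture by 1.30 over Activin+PD and 2.10 over mEpiSCs, and the mEpiSC level was 0.80 below Activin+PD. Of the EphB genes, Ephb4, the receptor for ephrin-B2, was at 7.90, 8.20 and 7.56 in the order Activin+PD, 2i, mEpiSC, and Ephb3 at 7.07, 6.87 and 7.23. Ephb1 was only just above background at 5.61, 5.74 and 6.09, and its second probe set was not above background. Epha10, the steadiest Eph receptor, ranged over 0.12.

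Because Epha1 and Epha4 ran in opposite directions, their promoters are shown, 250 bases before to 50 after the RefSeq start on GRCm38.p6. Capitals mark matches to a SMAD box, CAGAC, and a TCF/LEF core, CTTTGA, on either strand. Epha1 lies at chr6:42373219-42373518, minus strand, and Epha4 at chr1:77515039-77515338, minus strand, both printed 5′ to 3′ in the sense of the gene.
Epha1: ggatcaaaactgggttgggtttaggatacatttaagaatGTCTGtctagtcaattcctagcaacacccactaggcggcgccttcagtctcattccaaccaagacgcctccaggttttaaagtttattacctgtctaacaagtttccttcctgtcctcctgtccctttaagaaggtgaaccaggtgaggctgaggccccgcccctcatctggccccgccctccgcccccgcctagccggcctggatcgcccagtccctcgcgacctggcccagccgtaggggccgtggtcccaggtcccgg
Epha4: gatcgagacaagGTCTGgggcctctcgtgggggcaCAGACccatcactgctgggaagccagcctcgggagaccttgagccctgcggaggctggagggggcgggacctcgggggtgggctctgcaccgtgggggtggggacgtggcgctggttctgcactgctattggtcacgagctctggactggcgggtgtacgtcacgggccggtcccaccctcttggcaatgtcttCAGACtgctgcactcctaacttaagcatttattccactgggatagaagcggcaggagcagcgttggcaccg
The Epha1 window held 1 SMAD box match and 14 CpG dinucleotides, and the Epha4 window held 3 matches and 17 CpGs. Neither held the TCF/LEF core. Of all 32851 RefSeq promoter windows, 49.6% held at least 1 CAGAC match and 16% at least 1 CTTTGA match on either strand, so a match is a description and not a binding site.

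Of the plexins and neuropilins, Plxnb1 and Plxnc1 were apart. Plxnb1, the receptor for semaphorin 4D, was at 6.75 in Activin+PD, 6.25 in 2i and 7.86 in mEpiSCs. The mEpiSC level was above both mESC cultures, by 1.11 and 1.61. A second Plxnb1 probe set stayed below background throughout, and with the mean of both probe sets the differences were 0.72 and 0.89, under the 2-fold limit. Plxnc1, the receptor for semaphorin 7A, was at 6.80 in Activin+PD, not above background in 2i, and at 5.73 in mEpiSCs. It was the 1 receptor among the 7 apart that was highest in Activin+PD, by 1.07 over mEpiSCs and by at least 1.22 over 2i.

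The other plexins were within 2-fold. Plxna3 stood at 6.28, 6.40 and 7.12 in Activin+PD, 2i and mEpiSCs, and Plxnb2 at 8.07, 8.50 and 8.76. Plxna2, a receptor for semaphorin 6A, was at 7.08, 6.33 and 6.83 in the same order, so 2i was the lowest culture. Both probe sets of Plxna1 lay within 2-fold in all comparisons, and Plxna4, at 5.84, 5.97 and 5.81, was the steadiest plexin. Plxnd1, the receptor for semaphorin 3E, was at 5.76 in Activin+PD and 5.93 in mEpiSCs and not above background in 2i. Nrp2, the neuropilin above background, was at 6.12 in Activin+PD, 6.69 in 2i and 6.70 in mEpiSCs.

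Of the netrin receptors, Unc5b was at 7.18 in Activin+PD, 7.52 in 2i and 8.21 in mEpiSCs. Its difference between mEpiSC and Activin+PD was 1.03, and with each array centred on its median it was 0.997, under the limit. Unc5a ranged over 0.30. Unc5d was just above background in mEpiSCs alone, at 5.63, but its difference from 2i was only 0.058. Robo1, a Slit receptor, was at 8.07 in Activin+PD, 8.61 in 2i and 7.87 in mEpiSCs, and Robo4, known from endothelium, at 5.97, 5.65 and 5.90. Neither was apart in any comparison, and Robo2 and Robo3 were below background.

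**Figure D3:**
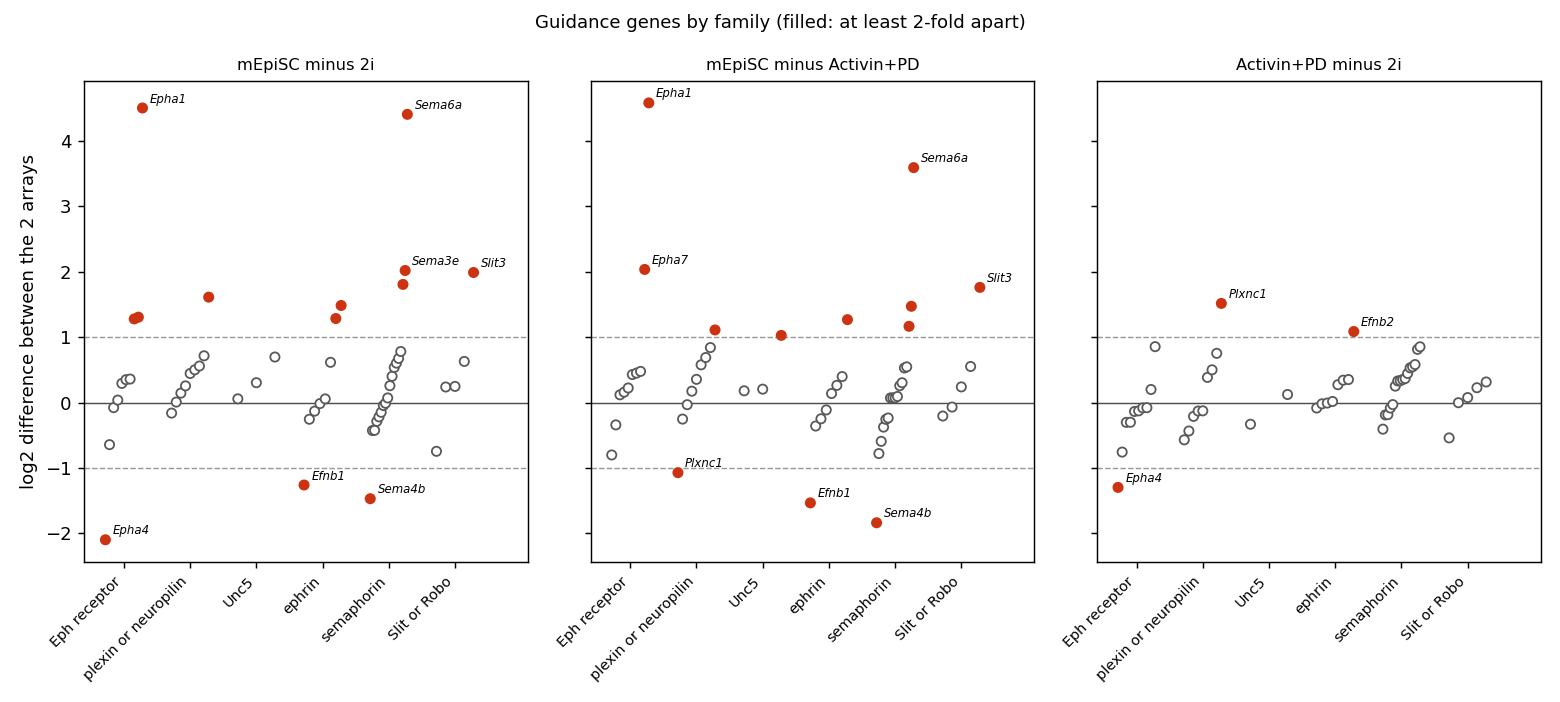
Log2 difference between 2 arrays for each guidance gene compared, by family and comparison (filled points are at least 2-fold apart, dashed lines mark 2-fold; some filled points carry the gene's name; members matched by name only are left out). Epha1 and Sema6a stand above 3 in both mEpiSC panels, and the Activin+PD minus 2i panel has 3 filled points, Plxnc1, Efnb2 and Epha4.

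Among the ligands, all 8 ephrin genes were above background in every culture and 3 were apart. Efnb2, the transmembrane ligand of EphB4 and a marker of arterial vessels, was at 8.69 in Activin+PD, 7.60 in 2i and 9.09 in mEpiSCs. Like Epha2, it was lowest in 2i, by 1.09 to Activin+PD and 1.48 to mEpiSCs, while the Activin A cultures lay 0.40 apart. Efnb1 had the opposite pattern to Efnb2 in mEpiSCs, at 8.48 in Activin+PD, 8.21 in 2i and 6.95 in mEpiSCs. The mESC cultures differed by 0.27, and mEpiSCs were lower by 1.53 and 1.26.

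Efna5, an ephrin-A ligand, was at 5.96 in Activin+PD, 5.95 in 2i and 7.23 in mEpiSCs. The mESC cultures were thus near background and alike to 0.017, with mEpiSCs higher by 1.27 and 1.28. Efna1, Efna3 and Efna4 lie side by side on chromosome 3 and were all within 2-fold, with ranges over the 3 arrays of 0.14, 0.36 and 0.25. Efna2 was at 8.14, 7.79 and 8.41 in Activin+PD, 2i and mEpiSCs, and Efnb3, the steadiest ephrin, ranged over 0.13.

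Of the 20 semaphorin genes, 4 were apart. Sema6a, a transmembrane semaphorin that binds plexins of class A, was at 6.52 in Activin+PD, 5.71 in 2i and 10.11 in mEpiSCs. Its level in 2i was just above background, Activin+PD was higher than 2i by 0.81, and mEpiSCs were higher than Activin+PD by 3.59. With 16 subtracted from each intensity before the logarithm, Activin+PD minus 2i was 1.07 and passed the 2-fold limit. Sema6b, Sema6c and Sema6d, the other class 6 members, were within 2-fold. Sema6b and Sema6c were at 0.40 and -0.29 in mEpiSC minus 2i. Sema6d was just above background in mEpiSCs alone, at 5.68.

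Sema3e, a secreted ligand that binds plexin D1 without a neuropilin, was at 8.22 in Activin+PD, 7.37 in 2i and 9.39 in mEpiSCs. The levels were spaced almost evenly, with steps of 0.85 and 1.17. Sema3c, a secreted semaphorin of the heart outflow tract, was at 5.71 in Activin+PD, not above background in 2i and at 7.18 in mEpiSCs. It was higher in mEpiSCs by at least 1.59 over 2i and by 1.47 over Activin+PD. Sema3f was at 7.09, 6.84 and 7.62 in Activin+PD, 2i and mEpiSCs, and Sema3b, the steadiest semaphorin, ranged over 0.083.

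Sema4b, a transmembrane class 4 member, was at 9.35 in Activin+PD, 8.98 in 2i and 7.51 in mEpiSCs. Of the semaphorins compared it was the 1 apart that was lower in mEpiSCs, 1.84 below Activin+PD and 1.47 below 2i. The other class 4 genes were within 2-fold. Of 6 class 4 genes compared between Activin+PD and 2i, 5 had a positive difference, with a median of 0.41, against 6875 of 14074 positive over all genes. The positive sign was not particular to class 4. Class 3 had a median of 0.25, class 6 of 0.33 and all semaphorins of 0.34, with 11 of 16 positive. Classes 5 and 7, with 1 gene compared in each, were at -0.19 and 0.53. Of 5 class 4 genes compared between mEpiSC and Activin+PD, 4 were negative, with a median of -0.59, against 6497 of 14404 over all genes. Both class 4 counts use the Activin+PD array, so they are not independent. Sema4d, the ligand of plexin B1, was at 7.83, 7.29 and 7.24 in Activin+PD, 2i and mEpiSCs, and Sema7a, the ligand of plexin C1, at 6.62, 6.09 and 6.69.

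All 3 Slit genes, secreted ligands of Robo receptors, were above background on every array. Slit3 was at 6.57 in Activin+PD, 6.34 in 2i and 8.33 in mEpiSCs, higher in mEpiSCs by 1.76 and 1.99. The mESC cultures lay 0.23 apart. Slit2 was at 5.95, 5.88 and 6.51 in the order Activin+PD, 2i, mEpiSC, and Slit1 at 6.07, 6.07 and 6.31, both close to background and within 2-fold.

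The promoters of Sema3e and Slit3 are shown as the windows with the lowest and highest G and C content among the ligand genes higher in mEpiSCs than in 2i. Sema3e lies at chr5:14025026-14025325 and Slit3 at chr11:35121206-35121505, both on the plus strand of GRCm38.p6, with the same motifs in capitals.
Sema3e: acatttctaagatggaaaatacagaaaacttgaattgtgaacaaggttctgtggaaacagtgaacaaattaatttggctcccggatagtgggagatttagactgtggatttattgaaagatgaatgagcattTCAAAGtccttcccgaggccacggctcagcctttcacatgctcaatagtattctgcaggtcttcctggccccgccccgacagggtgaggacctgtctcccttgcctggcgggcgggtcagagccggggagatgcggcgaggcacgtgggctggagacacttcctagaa
Slit3: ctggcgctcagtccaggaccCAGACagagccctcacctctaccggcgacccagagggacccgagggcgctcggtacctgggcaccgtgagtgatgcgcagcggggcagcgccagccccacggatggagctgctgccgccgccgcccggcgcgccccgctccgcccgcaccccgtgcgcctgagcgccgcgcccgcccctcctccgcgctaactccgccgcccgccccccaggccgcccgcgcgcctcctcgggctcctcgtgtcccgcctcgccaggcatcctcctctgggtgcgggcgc
The Sema3e window was 50.7% G or C with 11 CpGs and held 1 match to the TCF/LEF core (as TCAAAG) and no SMAD box. The Slit3 window was 78.3% G or C with 41 CpGs and held 1 SMAD box match and no TCF/LEF core. The windows of Efna5, Efnb2 and Sema3c were nearer that of Slit3, at 73.3%, 72.3% and 75.7% G or C with 38, 35 and 42 CpGs, so that Sema3e stood apart from the other 4 matched. RefSeq windows were matched for 55 of the 63 guidance receptor and ligand genes. Their 71 windows had a median of 19 CpGs, against 7 over all 32851 windows. The 16 windows of genes apart in any comparison had a median of 28, and the 55 windows of the others 17. The others include genes never above background, which could not be apart, and some genes have several windows. SMAD box matches were found in 8 of the 16 and 33 of the 55, or 50% and 60%, and TCF/LEF core matches in 2 and 3. Sema3e and Epha2 were the 2 genes apart whose window held the TCF/LEF core. No test was made of these shares.

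Receptors and ligands were set against each other by their differences. Between mEpiSC and 2i, 4 of 24 receptors were higher and 1 lower (20.8%), and 6 of 29 ligands higher and 2 lower (27.6%). The share over all genes was 9.48%. The median differences were 0.30 and 0.24 against 0.030 over all genes. With background taken at the 99th percentile the medians were 0.43 and 0.60, so the order of the 2 classes turned. Values below background raised to it gave a ligand median of 0.092, and no filter on dim genes gave 0.13. Between mEpiSC and Activin+PD, 4 of 24 receptors were higher and 1 lower (20.8%), and 5 of 28 ligands higher and 2 lower (25%). The share over all genes was 8.96%. The medians were 0.21 and 0.12 against 0.041. The receptor median was 0.45 with background at the 99th percentile, and the ligand median was 0.073 without the filter.

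Between Activin+PD and 2i the 2 classes had medians of opposite sign. Receptors had a median of -0.13, with 8 of 23 differences positive, and ligands 0.27, with 18 of 27 positive, against -0.0069 and 6875 of 14074 over all genes. Under the alternatives of scaling, filter, background and probe set, the receptor median ran from -0.30 to -0.10 and the ligand median from 0.23 to 0.35. By family, the receptor medians were -0.13 for Eph receptors, 0.13 for plexins, -0.11 for Robo and -0.10 for Unc5 receptors. Nrp2, the 1 neuropilin compared, was at -0.57. The ligand medians were 0.34 for semaphorins, 0.15 for ephrins and 0.077 for Slits. The sign of the receptor median was thus not shared by the plexins. These medians have no error from replicates, and genes are not replicates.

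The sign of that difference also sets the order of the 3 cultures where mEpiSCs were highest. Of 29 ligands above background on any array, 13 (44.8%) ran mEpiSC, Activin+PD, 2i from highest to lowest, against 21.1% of all genes. Of 24 receptors, 5 (20.8%) had that order and 11 (45.8%) ran mEpiSC, 2i, Activin+PD, against 23.1% of all genes. These counts restate the signs above and take no account of how small a step is.

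Other genes of guidance pathways were taken from 2 lists. Of 13 netrin, RGM and FLRT genes on the array, 9 were compared between mEpiSC and 2i, with 0 higher and 1 lower, 8 between mEpiSC and Activin+PD, with 0 higher and 1 lower, and 7 between Activin+PD and 2i, with 0 higher and 2 lower. The shares apart in either direction were 11.1%, 12.5% and 28.6%, against 9.48%, 8.96% and 2.2% of all genes, and each rests on 1 or 2 genes. The medians were -0.072, 0.21 and -0.17. Ntn1, which encodes the secreted cue netrin-1, was at 7.45 in Activin+PD, 8.47 in 2i and 6.75 in mEpiSCs. Like Epha4 it was highest in 2i, by 1.03 and 1.72. Neo1, the netrin and RGM receptor neogenin, was at 8.86, 8.65 and 7.77 in Activin+PD, 2i and mEpiSCs, lowest in mEpiSCs. Flrt3, a ligand of Unc5 receptors, was at 6.57 in 2i and 6.06 in mEpiSCs and not above background in Activin+PD, lower there than in 2i by at least 1.06. The netrin receptor gene Dcc was not above background on any array.

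Of 43 cytoskeletal and signalling genes, 42 were compared between mEpiSC and 2i, with 6 higher and 2 lower (19%), 41 between mEpiSC and Activin+PD, with 5 higher and 4 lower (22%), and 41 between Activin+PD and 2i, with 2 higher and 0 lower (4.88%). The shares over all genes were 9.48%, 8.96% and 2.2%, each below that of the list. The list's medians were 0.057, 0.079 and 0.040, against 0.030, 0.041 and -0.0069 over all genes. The genes apart included 4 of the collapsin response mediator family, which relay semaphorin signals to microtubules. Crmp1 was at 9.49 in Activin+PD, 6.29 in 2i and 9.67 in mEpiSCs, high in both cultures with Activin A and without the GSK3 inhibitor. Dpysl2 was at 9.07, 8.52 and 10.24 in the same order of cultures, and Dpysl5 at 6.53, 6.67 and 8.50, each highest in mEpiSCs. Dpysl4 was at 7.12, 5.88 and 6.06, highest in Activin+PD. The fifth member, Dpysl3, was within 2-fold on the probe set used, whereas its other probe set was past the limit in 2 comparisons, with Activin+PD minus 2i at 1.05 and mEpiSC minus Activin+PD at -1.06.

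Met, a receptor tyrosine kinase known to associate with plexin B1, was at 7.17 in mEpiSCs and not above background in either mESC culture. It was higher in mEpiSCs by at least 1.58 over 2i and 1.66 over Activin+PD. The adaptor gene Grb7 was at 7.21 in Activin+PD, 6.91 in 2i and 8.62 in mEpiSCs, and the adhesion gene Nrcam at 5.88, 5.62 and 7.38. Both were thus highest in mEpiSCs. Lower in mEpiSCs were Enah, an actin regulator, at 10.78, 10.50 and 9.26 in Activin+PD, 2i and mEpiSCs, and Adam10, a protease that cleaves ephrins, at 9.17, 9.48 and 8.29. Mical1, an actin oxidase downstream of plexins, was at 8.01, 7.55 and 6.93, and Srgap3, a Slit-Robo GTPase activating protein, at 7.25, 6.94 and 6.11. Against Activin+PD the mEpiSC difference was -1.51 for Enah, -1.09 for Mical1 and -1.14 for Srgap3, and against 2i it was -1.24 for Enah and -1.19 for Adam10.

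**Figure D4:**
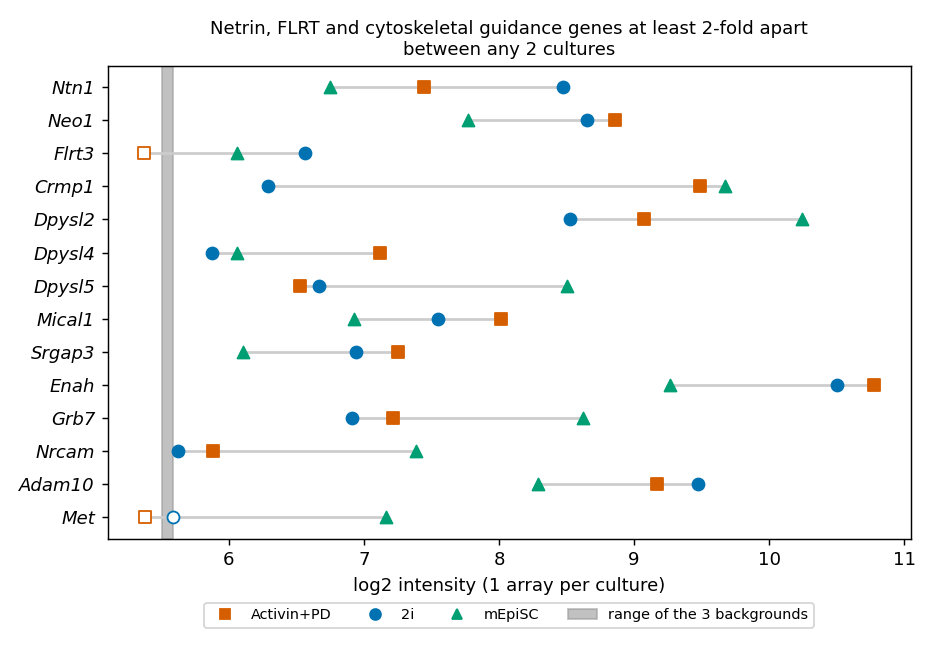
Log2 intensity of the 14 netrin, FLRT and cytoskeletal guidance genes at least 2-fold apart between any 2 cultures, 1 array per culture (squares Activin+PD, circles 2i, triangles mEpiSC; open symbols are not above background, and the grey band spans the 3 backgrounds). Crmp1 is high in both cultures with Activin A and without the GSK3 inhibitor, and Ntn1 and Enah are lowest in mEpiSCs.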

How the data were processed

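Total RNA of 3 cultures was measured on 3 Affymetrix arrays (Mouse Gene 2.0 ST), 1 per culture. The authors' deposited values are intensities on a linear scale; the submitters' processing notes name RMA, and the series' design text GeneSpring GX 11.5. No genome build is named in the sources used here. Log2 of each deposited intensity was taken, with no further scaling. The lowest values (18.9 to 19.1) were alike on all arrays, and whether a constant had been added is not given. Of 33793 probe sets, 23521 had 1 symbol in the platform annotation, 1814 several and 8458 were not listed. For each of 22180 genes the probe set of highest mean log2 intensity was kept. Background came from 1405 olfactory and vomeronasal receptor probe sets.

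Differences are on the log2 scale, with the array named second subtracted. Where the dimmer array was not above background, a gene has only a bound, given as "by at least", from the brighter level minus that array's background. Medians cover members with either array above background. Members, lists and thresholds were chosen with earlier results of these data known. Named were all members and list genes at least 2-fold apart in any comparison, the steadiest member of each family, members never above background, and others as examples chosen after their values were seen. The arrays' number limits the precision. Scripts (Python 3.11.15, pandas 2.3.3) were tested on simulated data. Promoter sequences are RefSeq's, build GRCm38.p6; 8 receptor and ligand genes, Sema6a among them, had no entry. Alternatives varied the filter, background, scaling, probe set and fold limit.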

Additional observations from a re-analysis of the deposited data

How the results depend on the processing

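No paired analysis was possible because each culture had 1 array and the labels give no replicate numbers. For the same reason no array could be left out. Without the filter on dim genes, with values below background raised to it, with background at the 99th percentile, with 16 subtracted from each intensity, with median centring, repeated quantile normalisation or lowess removal, and with the mean of all probe sets, the counts of guidance genes and list genes apart stayed within 1.5 times those reported, and no named gene that was apart changed sign. A fold limit of 1.5 gave 22 guidance genes apart for mEpiSC minus 2i (17 higher, 5 lower) and 8 for Activin+PD minus 2i. A limit of 3 gave 7 for mEpiSC minus 2i, 5 for mEpiSC minus Activin+PD and 0 for Activin+PD minus 2i. Shares over all genes were not taken at the limits of 1.5 and 3, so these counts have no background beside them. With 16 subtracted, differences of genes near background grew, by construction: Epha1 was at 4.99 and Sema6a at 4.91 in mEpiSC minus 2i, and Srgap3 passed the 2-fold limit at -1.01. Single arrays and levels near background limit every value for Epha1, Sema6a, Sema3c, Plxnc1 and Efna5 in the dimmer cultures.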
